A study of Mus musculus with 6 samples.

Results

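The genes of the LIF receptor and the JAK-STAT3 pathway were compared between embryoid bodies (EBs) of wild-type (WT) and Tnfaip2-/- mouse embryonic stem cells (ESCs). The set held 10 genes, chosen by symbol: the cytokine gene Lif, the receptor genes Lifr and Il6st, the kinase genes Jak1, Jak2 and Tyk2, the transcription factor gene Stat3, the feedback inhibitor genes Socs2 and Socs3, and the kinase gene Pim1. Each symbol matched 1 of the 52636 genes in the count table, and all 10 were among the 17849 genes that passed the expression filter.

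EBs are aggregates in which ESCs leave self-renewal and begin to form the germ layers. Both genotypes were of the mouse line E14. Cells were kept in medium with 1000 U/ml LIF, aggregated for 3 days in hanging drops and then differentiated for 3 days on gelatin, in a medium for which the sample descriptions list no LIF. The WT samples came from the parental line and the Tnfaip2-/- samples from a single homozygous clone with a premature stop codon made by CRISPR-Cas9. With 1 clone, the 3 samples of each genotype show how cultures varied, and an effect of the mutation cannot be told apart from other properties of that clone. The 3 samples are described as biological replicates without saying how the cultures were kept apart, and the p-values measure the spread between these samples. Total counts per sample ranged from 21765931 to 23804489, and levels are given as CPM, counts per 1000000 of the scaled library.

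The targeted gene, Tnfaip2 (ENSMUSG00000021281, chr12:111442469-111455018, GRCm38), gave 7, 4 and 7 counts in WT samples, against 0, 2 and 2 in Tnfaip2-/- samples. Every Tnfaip2-/- sample lay below every WT sample, but the gene was too low for the expression filter. Over the summed counts, the level in Tnfaip2-/- EBs was 0.228 of that in WT EBs, with an exact 95% binomial interval from 0.0561 to 0.692 that covers counting error only.

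Markers of cell types also differed between the genotypes, where of all tested genes 34.0% were higher and 33.7% lower in Tnfaip2-/- EBs, and in bulk samples fewer cells of a type and less RNA per cell cannot be told apart. Both genotypes held all 8 pluripotent cell markers at high levels, with 3 higher and 5 lower in Tnfaip2-/- EBs. Their sums, led by Dppa5a, were 3494, 3444 and 3513 CPM in the WT EBs and 2949, 2955 and 2931 CPM in the Tnfaip2-/- EBs. Dppa5a (973.2 to 602.0 CPM) and Pou5f1 (759.7 to 419.0 CPM) had the largest falls in CPM. Zfp42 (229.0 to 427.9 CPM), Nanog (258.1 to 309.6 CPM) and Sox2 (280.7 to 329.1 CPM) were higher, so the lower sum does not hold for each marker. The 8 primitive streak and mesoderm markers, of which 7 were tested and all 7 were lower, summed to 90.8, 90.4 and 89.8 CPM, led by T, and to 21.6, 19.0 and 22.5 CPM, led by Eomes. Msgn1 was at 0 counts and Mesp1 at no more than 2 in all Tnfaip2-/- samples. The 8 neural ectoderm markers, led by Otx2, were lower for 6 of 7 tested and summed to 345.6, 340.5 and 336.3 CPM against 273.3, 271.9 and 273.6 CPM. Otx2 itself was not called (224.2 against 222.9 CPM) and makes up most of these sums. The differentiation label of the samples thus has its markers in the WT EBs, and fewer of them in the Tnfaip2-/- EBs.

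The 8 endoderm markers, led by Dab2, were higher for 2 and lower for 4, with sums of 71.6, 71.5 and 73.1 CPM against 63.3, 61.9 and 64.3 CPM. Of the 8 trophoblast markers, 6 were tested, 3 were higher (Tfap2c, Hand1 and Krt7) and 2 were lower. The sums of 57.2, 53.0 and 55.8 CPM against 202.7, 199.1 and 202.8 CPM were led by Tfap2c, a gene that ESCs and germ cells also use. Tfap2c alone went from 21.7 to 171.1 CPM and makes up the rise in these sums. Hand1 rose from 8, 8 and 9 counts to 22, 21 and 40 and Krt7 from 13, 9 and 18 counts to 32, 33 and 29, while Cdx2 fell from 42, 37 and 28 counts to 1, 2 and 0 (log2 fold change -4.96, adjusted p = 3.55e-13, edgeR) and Elf5 had at most 3 counts in either genotype. The 8 fibroblast markers, of which 4 were tested and 2 were lower, stayed between 5.85 and 10.2 CPM in sum, led by Thy1, with Postn and Lum at 0 in the Tnfaip2-/- EBs. The part of these marker differences in the values of the LIF and STAT3 genes was not tested.

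LIF binds LIFR, which then pairs with gp130, the product of Il6st, a chain shared by the receptors of the IL-6 cytokine family. Janus kinases bound to the receptor tails phosphorylate STAT3, which forms dimers, enters the nucleus and activates its targets, among them Socs3, whose product binds gp130 and the kinases and shuts the signal off. In mouse ESCs this pathway sustains self-renewal, and LIF is withdrawn to let the cells differentiate. Counts of mRNA show how much mRNA of each component was present and not whether STAT3 was phosphorylated.

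In Tnfaip2-/- EBs the ligand gene was higher, 1 receptor chain was lower and the other slightly higher, the kinase genes were higher, and Stat3 did not pass the test. Of the 10 genes, 9 were called, with the quasi-likelihood test of edgeR and p-values adjusted over all tested genes by the method of Benjamini and Hochberg (below 0.05), against 67.7% of all tested genes. Higher in Tnfaip2-/- EBs were 7 (34.0% of all tested genes) and lower were 2, Lifr and Socs2 (33.7% of all tested genes). The samples of the 2 genotypes did not overlap for the same 9 genes, against 69.4% of all tested genes. In a test against a fold change of 1.5, 3 of the 10 were called, Lif, Lifr and Pim1, against 15.7% of all tested genes. The median log2 fold change was 0.35 over the 10 genes and 0.003 over all tested genes. With most tested genes called, the share of called members was not far from the background, and the size and direction of each change carry the description.

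**Figure D1:**
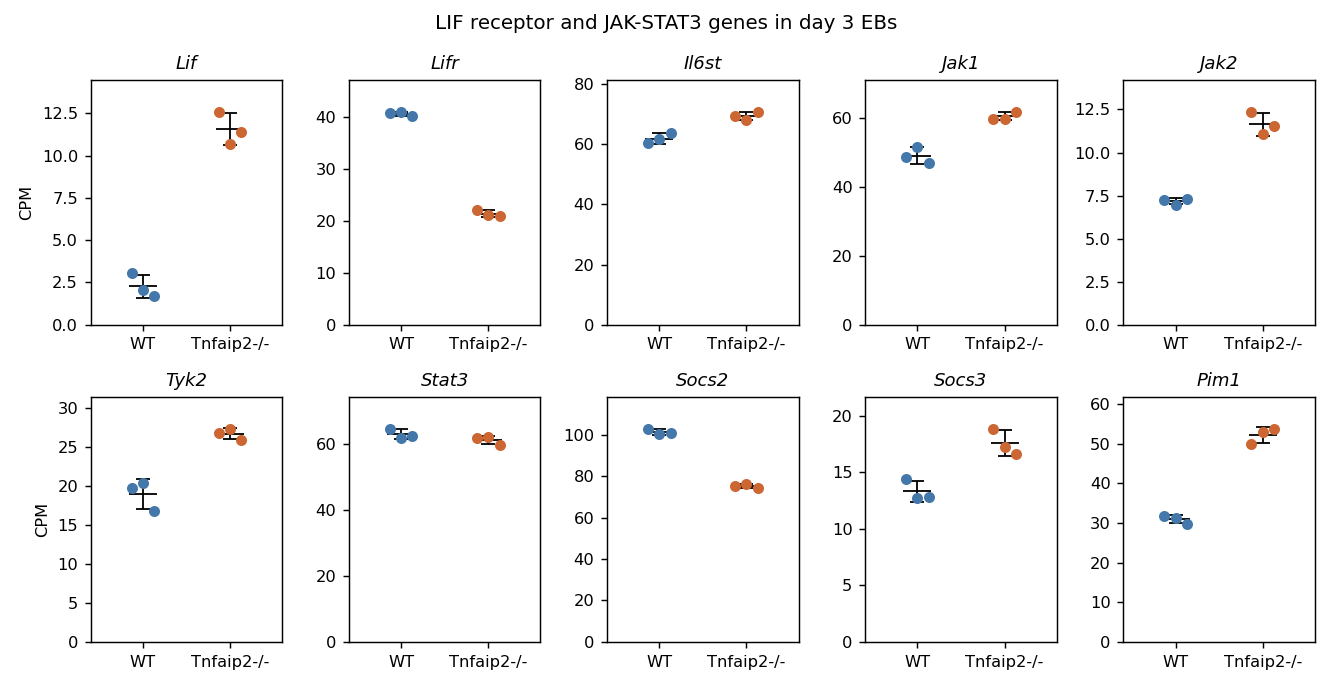
CPM (y axis, from 0) of the 10 genes in each of the 3 WT (blue) and 3 Tnfaip2-/- (orange) samples, with the mean and SD in black. The samples of the 2 genotypes overlap for Stat3 and for no other gene shown.

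The promoter windows of the genes whose changes passed the test against a fold change of 1.5, Lif, Lifr and Pim1, and that of the feedback gene Socs3, are printed to show the sequence at the start sites of genes that rose and of the gene that fell. They come from RefSeq (GRCm38.p6), which gave a window for 9 of the 10 genes, and run from 250 bases before to 50 bases after the start, 5′ to 3′. Socs2 was not matched. The windows lie at chr11:4257318-4257617 (Lif, forward strand), chr15:7129322-7129621 (Lifr, forward strand, the upstream of 2 windows), chr17:29490535-29490834 (Pim1, forward strand, the upstream of 2 windows) and chr11:117969317-117969616 (Socs3, reverse strand). The counted genes begin further upstream for Lifr (chr15:7090614) and Socs3 (chr11:117970047), so the windows of these genes lie inside them. Capitals mark the STAT-type palindrome TTCNNNGAA, which reads the same on both strands, and the GC box GGGCGG or its reverse complement CCGCCC.
Lif: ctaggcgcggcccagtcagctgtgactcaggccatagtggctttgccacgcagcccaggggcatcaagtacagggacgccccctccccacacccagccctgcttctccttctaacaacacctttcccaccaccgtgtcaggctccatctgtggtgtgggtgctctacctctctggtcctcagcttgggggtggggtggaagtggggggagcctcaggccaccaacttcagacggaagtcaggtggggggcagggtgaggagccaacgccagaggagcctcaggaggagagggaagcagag
Lifr: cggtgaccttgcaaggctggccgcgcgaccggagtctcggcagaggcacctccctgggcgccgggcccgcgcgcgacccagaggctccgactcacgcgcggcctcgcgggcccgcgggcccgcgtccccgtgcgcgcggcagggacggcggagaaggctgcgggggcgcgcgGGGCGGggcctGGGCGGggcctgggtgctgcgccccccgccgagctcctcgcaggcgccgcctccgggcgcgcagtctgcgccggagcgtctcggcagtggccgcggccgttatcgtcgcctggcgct
Pim1: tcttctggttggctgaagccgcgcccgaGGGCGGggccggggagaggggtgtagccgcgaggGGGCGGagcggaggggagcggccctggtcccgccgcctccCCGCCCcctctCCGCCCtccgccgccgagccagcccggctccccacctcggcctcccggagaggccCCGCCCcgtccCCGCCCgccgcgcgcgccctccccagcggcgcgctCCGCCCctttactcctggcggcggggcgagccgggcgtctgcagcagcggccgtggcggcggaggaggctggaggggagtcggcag
Socs3: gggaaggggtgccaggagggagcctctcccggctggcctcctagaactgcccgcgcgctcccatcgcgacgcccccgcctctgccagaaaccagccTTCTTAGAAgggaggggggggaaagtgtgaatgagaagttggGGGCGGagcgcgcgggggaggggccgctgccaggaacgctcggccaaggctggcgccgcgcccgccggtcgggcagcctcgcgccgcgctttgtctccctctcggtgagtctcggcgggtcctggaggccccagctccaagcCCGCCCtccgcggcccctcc

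Socs3 was the 1 gene of the 9 whose window held TTCNNNGAA, as TTCTTAGAA at chr11:117969512-117969520, starting 154 bases before the RefSeq start site. Over all genes with a window, 9.55% held this motif, and over all single windows 8.30%. A GC box was found for 8 of the 9 genes, against 38.2% of all genes, with 7 in the Pim1 window, 2 each in the Lifr and Socs3 windows and 0 in the Lif window. It was also common in most related lists, found for 8 of 8 SOCS, PIAS and phosphatase genes, 9 of 12 JAK-coupled receptors and 7 of 10 STAT3 targets with a window. The other lists gave 6 of 8 genes of the other branches from Il6st, 4 of 6 other JAK and STAT genes and 3 of 5 receptor chains. Among the IL-6 family ligands it was found for 1 of 4, below the share of all genes. Of the 11 windows of the 9 genes, 10 were above the median GC content of all windows, 52.7%. The motif TATAAA, on either strand, was in 0 of the 9 genes' windows, against 15.7% of all genes, and CCAAT, on either strand, was found for 5 of the 9, against 41.1%. The GC box was thus present both for Lifr, which fell, and for Pim1 and Socs3, which rose.

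Lif (ENSMUSG00000034394, chr11:4257557-4272514, forward strand), which encodes the cytokine itself, gave 69, 46 and 40 counts in WT samples, against 286, 234 and 253 in Tnfaip2-/- samples. The lowest Tnfaip2-/- sample was far above the highest WT sample. Within the WT EBs the coefficient of variation was 30.7%, against 13.9% from counting alone, and WT replicate 1 was the highest. The level rose from 2.27 ± 0.696 to 11.6 ± 0.961 CPM (SD, n = 3), 5.11-fold, with a standard error of 0.125 around the log2 value of 2.35 (adjusted p = 1.43e-21, edgeR). Of all tested genes, 2.14% had a larger absolute log2 fold change.

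Of the 7 other listed ligands of the IL-6 family, 2 passed the filter, and of these 1 was lower (33.7% of all tested genes), 0 were higher (34.0%) and 1 was not called, with a median log2 fold change of -0.73 between 2 values of opposite sign. Ctf1, the gene not called, had 38, 49 and 37 counts in WT samples, against 55, 33 and 57 in Tnfaip2-/- samples, which overlap (log2 fold change 0.26). Clcf1, whose product signals through LIFR and gp130 together with the CNTF receptor, gave 191, 144 and 164 counts in WT samples, against 50, 44 and 54 in Tnfaip2-/- samples. The groups were well apart, and the log2 fold change was -1.71 (adjusted p = 1.16e-15, edgeR). Osm, whose gene lies 16531 bases from Lif, was below the filter, with 5, 5 and 6 counts in WT samples, against 9, 16 and 13 in Tnfaip2-/- samples, and was picked for mention after its values were seen. Il6 and Il27 had at most 3 counts in any sample.

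The genes beside Lif on chromosome 11 were looked up after the values were seen. Of the 4 nearest protein-coding genes on each side, 6 were tested, of which 4 were higher and 0 were lower, against 34.0% and 33.7% of all tested genes. Castor1 (1.30), Hormad2 (0.97), Tbc1d10a (0.36) and Mtmr3 (0.16) had positive log2 fold changes that were called, and Sf3a1 and Ascc2 were not called. Osm, the nearest, was untested and also had more counts in Tnfaip2-/- samples. None of them reached the 2.35 of Lif, and the median over the 1385 tested genes of the chromosome was 0.12.

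Lifr (ENSMUSG00000054263, chr15:7090614-7197489, forward strand), the chain that binds LIF first, gave 921, 917 and 944 counts in WT samples, against 503, 460 and 464 in Tnfaip2-/- samples. The highest Tnfaip2-/- sample was well below the lowest WT sample, and replicates differed little. The level fell from 40.6 ± 0.389 to 21.4 ± 0.680 CPM (SD, n = 3), which is -0.93 on the log2 scale (adjusted p = 3.83e-21, edgeR, standard error 0.0504). The median over the 612 tested genes of chromosome 15 was 0.08.

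Il6st (ENSMUSG00000021756, chr13:112464070-112510086, forward strand), which encodes gp130, gave 1366, 1380 and 1496 counts in WT samples, against 1578, 1488 and 1570 in Tnfaip2-/- samples. In raw counts WT replicate 3 lay within the Tnfaip2-/- range, but after scaling for library size the groups did not overlap (60.3 to 63.7 CPM against 67.9 to 70.8 CPM). The rise was small, with a log2 fold change of 0.17 (95% interval 0.09 to 0.24, adjusted p = 0.000142, edgeR). Of all tested genes, 69.8% had a larger absolute change.

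The log2 ratio of Lifr to Il6st counts, which needs no scaling between samples, was -0.57, -0.59 and -0.66 in WT samples, against -1.65, -1.69 and -1.76 in Tnfaip2-/- samples. It was lower in each of the 3 Tnfaip2-/- samples than in any WT sample, by 1.09 on average (-1.70 ± 0.0549 against -0.61 ± 0.0502, SD, n = 3). A two-sided exact permutation test gave p = 0.1, the smallest that 3 against 3 can give. Per length, as CPM per kilobase of exon, Lifr was at 3.77 ± 0.0361 and Il6st at 5.57 ± 0.154 in the WT EBs, and at 1.98 ± 0.0631 and 6.25 ± 0.129 in the Tnfaip2-/- EBs (SD, n = 3).

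Among the 7 other receptor chains of the family, 5 passed the filter, 2 were lower (33.7% of all tested genes), 0 were higher (34.0%) and 3 were not called, with a median log2 fold change of 0.24. Cntfr, which encodes the membrane-anchored CNTF receptor, gave 1641, 1650 and 1635 counts in WT samples, against 1128, 1054 and 1128 in Tnfaip2-/- samples, without overlap (log2 fold change -0.54, adjusted p = 1.34e-16, edgeR). Il11ra1 overlapped between the groups, with a log2 fold change of -0.24. Its call was lost with DESeq2, with upper-quartile factors or library totals, and without WT replicate 1 (-0.24), WT replicate 2 (-0.20), Tnfaip2-/- replicate 1 (-0.17) or Tnfaip2-/- replicate 3 (-0.23), and 45.8% of its 51-base windows also occur in Il11ra2 or Gm13305. Osmr, the partner of gp130 in the oncostatin M receptor, had at most 3 counts in any sample.

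The 3 kinase genes of the set were all higher in Tnfaip2-/- EBs. Jak1 (ENSMUSG00000028530, chr4:101152367-101265282, reverse strand), the kinase on which gp130 signalling chiefly depends, gave 1108, 1157 and 1102 counts in WT samples, against 1361, 1312 and 1374 in Tnfaip2-/- samples. Every Tnfaip2-/- sample was above every WT sample. The log2 fold change was 0.30 (adjusted p = 1.15e-08, edgeR, standard error 0.041).

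Jak2 (ENSMUSG00000024789, chr19:29251828-29313080, forward strand) gave 164, 156 and 172 counts in WT samples, against 281, 242 and 256 in Tnfaip2-/- samples. The groups were apart, and it had the largest change of the 3 kinase genes, 0.70 on the log2 scale (95% interval 0.53 to 0.87, adjusted p = 7.28e-10, edgeR). Tyk2 (ENSMUSG00000032175, chr9:21104068-21131243, reverse strand) gave 447, 458 and 395 counts in WT samples, against 609, 599 and 576 in Tnfaip2-/- samples. WT replicate 3 was the lowest, the groups did not overlap, and the log2 fold change was 0.49 (95% interval 0.37 to 0.62, adjusted p = 1.21e-09, edgeR). Of the exon bases of Tyk2, 8.07% overlap 1700084C06Rik on the opposite strand, which had 0 counts.

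Jak3, the fourth Janus kinase gene and best known from lymphoid cytokine receptors, changed more than any of these, from 239, 238 and 293 counts in WT samples to 741, 756 and 718 in Tnfaip2-/- samples. All Tnfaip2-/- samples were above all WT samples (log2 fold change 1.56, adjusted p = 6.85e-26, edgeR), and 7.55% of its exon bases overlap Insl3, which had at most 13 counts. Per length, Jak3 made up 15.1%, 14.7% and 18.3% of the summed Janus kinase level in WT samples, against 29.4%, 30.8% and 29.2% in Tnfaip2-/- samples. Jak1 remained the most abundant of the 4, at 52.0 ± 1.00% and 40.3 ± 0.945% (SD, n = 3), and these shares were not tested. The summed level rose from 13.1 ± 0.404 to 20.8 ± 0.115 CPM per kilobase (SD, n = 3). Il2rg, which encodes the receptor chain that JAK3 binds and was singled out after its values were seen, had at most 12 counts in any sample and was not called, and 30.5% of its exon bases overlap Gm20489, where reads may have been left uncounted.

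**Figure D2:**
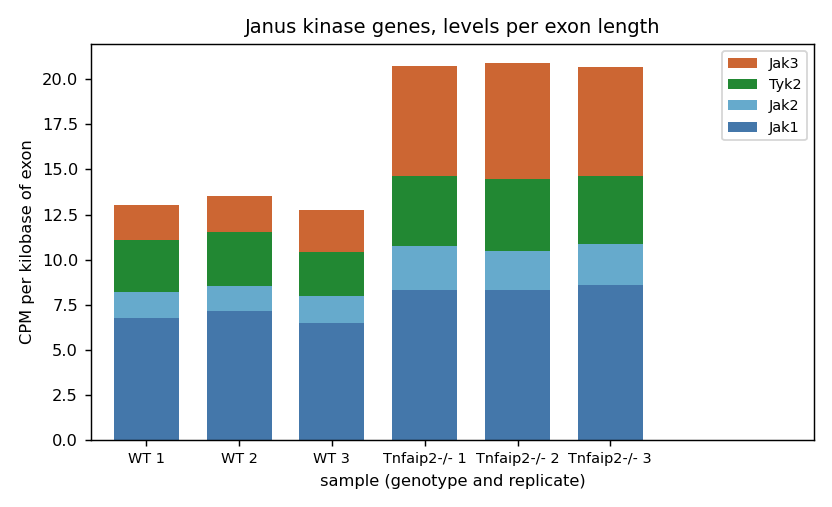
Summed levels of the 4 Janus kinase genes (y axis, CPM per kilobase of exon, from 0) in each of the 6 samples (x axis), stacked by gene. The 3 Tnfaip2-/- samples are higher than the 3 WT samples, and the Jak3 part is larger in each of them.

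Stat3 (ENSMUSG00000004040, chr11:100885098-100939540, reverse strand), the transcription factor that carries the signal, gave 1463, 1381 and 1467 counts in WT samples, against 1402, 1358 and 1325 in Tnfaip2-/- samples. The 2 groups overlapped after scaling, at 61.7 to 64.6 CPM and 59.7 to 62.0 CPM. The log2 fold change was -0.04, with a 95% interval from -0.12 to 0.04 (adjusted p = 0.351, edgeR). A larger absolute change was found for 92.5% of all tested genes. Its exons share 72 bases with those of Stat5a on the opposite strand, 0.756% of its exon bases.

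The list of other JAK and STAT genes held 7 genes, all tested, of which 4 were higher (34.0% of all tested genes), 1 was lower (33.7%) and 2 were not called, with a median log2 fold change of 0.31. Stat5a, whose product mediates signals of prolactin and many cytokines, gave 78, 95 and 81 counts in WT samples, against 124, 129 and 110 in Tnfaip2-/- samples, without overlap (log2 fold change 0.55, adjusted p = 0.000106, edgeR). Stat6, the factor of IL-4 signalling, fell by 0.26 on the log2 scale (adjusted p = 7.48e-05, edgeR).

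Of the pathway's feedback genes, 1 fell and 1 rose. Socs2 (ENSMUSG00000020027, chr10:95385362-95417180, reverse strand), best known as an inhibitor of growth hormone signalling, gave 2330, 2246 and 2374 counts in WT samples, against 1711, 1670 and 1646 in Tnfaip2-/- samples. The groups were far apart relative to their spread, at 101.4 ± 1.29 and 75.3 ± 1.02 CPM (SD, n = 3). The log2 fold change was -0.43 (adjusted p = 1.25e-15, edgeR, standard error 0.0335), beside a median of -0.18 over the 851 tested genes of chromosome 10.

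Socs3 (ENSMUSG00000053113, chr11:117966079-117970047, reverse strand), the inhibitor that acts on gp130, gave 326, 285 and 302 counts in WT samples, against 428, 378 and 368 in Tnfaip2-/- samples. The highest WT sample was below the lowest Tnfaip2-/- sample, by a small margin (14.4 against 16.6 CPM). The log2 fold change was 0.40 (95% interval 0.26 to 0.54, adjusted p = 2.47e-06, edgeR).

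The log2 ratio of Socs3 to Stat3 counts was -2.17, -2.28 and -2.28 in WT samples, against -1.71, -1.85 and -1.85 in Tnfaip2-/- samples. The 3 Tnfaip2-/- samples were all higher, by 0.44 on average (-1.80 ± 0.0779 against -2.24 ± 0.065, SD, n = 3), and a two-sided exact permutation test gave its smallest possible p of 0.1.

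Pim1 (ENSMUSG00000024014, chr17:29490753-29496112, forward strand), a serine/threonine kinase gene that STAT factors activate, gave 721, 701 and 701 counts in WT samples, against 1134, 1163 and 1193 in Tnfaip2-/- samples. All Tnfaip2-/- samples were well above the WT samples. The level rose from 31.0 ± 1.03 to 52.3 ± 2.07 CPM (SD, n = 3), or 0.75 on the log2 scale (adjusted p = 2.19e-19, edgeR, standard error 0.0458). The median over the 791 tested genes of its chromosome, 17, was -0.25, the opposite sign. An antisense gene, Gm26885, covers 14.5% of the exon bases of Pim1 and had at most 3 counts in any sample. Reads over these shared bases may have been left uncounted for both genes.

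Levels within the set can be ordered per length. In the WT EBs the highest were Socs2 (10.6 CPM per kilobase) and Pim1 (9.22), followed by Jak1 (6.80) and Stat3 (6.60), whose samples overlapped. Below them came Il6st (5.57), Socs3 (4.61), Lifr (3.77), Tyk2 (2.77), Jak2 (1.43) and Lif (0.521), with no overlap between neighbours. In the Tnfaip2-/- EBs Pim1 (15.5) was highest and Lifr (1.98) lowest. There Stat3 (6.42), Il6st (6.25) and Socs3 (6.08) could not be ordered. The ranges of Lif (2.66) and Jak2 (2.32) overlapped. Within each Tnfaip2-/- sample, however, Lif was above Jak2 (2.89, 2.46 and 2.62 against 2.46, 2.2 and 2.29). Lif was thus last in the WT EBs and close to Jak2 in the Tnfaip2-/- EBs, while Lifr moved from the seventh place to the last.

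The list of SOCS, PIAS and phosphatase regulators held 14 genes, all tested, of which 8 were higher (34.0% of all tested genes), 5 were lower (33.7%) and 1 was not called, with a median log2 fold change of 0.12. Ptpn6, which encodes the phosphatase SHP-1, rose from 649, 590 and 634 counts in WT samples to 2517, 2522 and 2602 in Tnfaip2-/- samples. The groups were far apart (log2 fold change 2.07, adjusted p = 3.15e-38, edgeR). Socs1, a direct inhibitor of the kinases, also rose (log2 fold change 1.00, 95% interval 0.73 to 1.28, adjusted p = 1.33e-08, edgeR). Of the PIAS genes, whose products include E3 ligases for SUMO, Pias1 rose by a log2 fold change of 0.76 (adjusted p = 3.11e-21, edgeR). Pias3, named for its inhibition of STAT3, gave 829, 854 and 871 counts in WT samples, against 452, 404 and 449 in Tnfaip2-/- samples. Its groups did not overlap, and the log2 fold change was -0.93 (adjusted p = 2.18e-20, edgeR).

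Among 14 other receptors that act through Janus kinases, 12 were tested, 5 were higher (34.0% of all tested genes), 1 was lower (33.7%) and 6 were not called, with a median log2 fold change of 0.03. The largest changes were in genes with few counts in the WT EBs. Il13ra1 gave 11, 12 and 9 counts in WT samples, against 49, 64 and 70 in Tnfaip2-/- samples (log2 fold change 2.54, adjusted p = 6.08e-13, edgeR). Lepr, the leptin receptor and a structural relative of gp130, had 9, 7 and 6 counts against 33, 21 and 21 counts (log2 fold change 1.79, adjusted p = 3.93e-06, edgeR). The groups did not overlap for either gene, though counting error is wide at these levels. Il10rb (1.73) and Il4ra (0.70), the partner of IL13RA1 in the IL-13 receptor, were also higher on the log2 scale, and 14.9% of the exon bases of Il10rb overlap Gm21970, which had 0 counts.

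gp130 also signals through SHP-2 to the RAS-ERK and PI3K routes. Of 11 listed genes of these branches, all tested, 4 were higher (34.0% of all tested genes), 5 were lower (33.7%) and 2 were not called, with a median log2 fold change of -0.04. Gab1, which links gp130 to these routes, gave 6332, 6375 and 6430 counts in WT samples, against 3740, 3661 and 3741 in Tnfaip2-/- samples. The groups were far apart. The adaptor genes moved in opposite directions, with log2 fold changes of -0.74 for Gab1 (adjusted p = 7.06e-28, edgeR) and 0.61 for Grb2 (adjusted p = 1.96e-20, edgeR). Ptpn11, which encodes SHP-2, fell by 0.35 on the log2 scale (adjusted p = 2.36e-12, edgeR).

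The STAT3 target genes known from ESCs did not move 1 way. Of 12 listed, 11 were tested, 3 were higher, 7 were lower and 1 was not called, against 34.0% higher and 33.7% lower of all tested genes. The median log2 fold change was -0.18, against 0.003 over all tested genes. Socs3 (0.40) and Pim1 (0.75), members that STAT factors also activate, were not in this list and were higher on the log2 scale. Klf4, a pluripotency factor gene that LIF induces, gave 1177, 1170 and 1228 counts in WT samples, against 415, 384 and 444 in Tnfaip2-/- samples. These groups were far apart (log2 fold change -1.49, adjusted p = 6.87e-29, edgeR). Klf5, of the same family, fell by 1.32 (adjusted p = 9.16e-22) and Myc by 1.29 (adjusted p = 1.26e-21) on the log2 scale (edgeR). Gbx2 fell from 12.4 ± 0.488 to 4.38 ± 0.574 CPM (SD, n = 3), to 0.353 of the WT level (adjusted p = 1.86e-18, edgeR). Of the exon bases of Gbx2, 43.5% overlap D130058E05Rik on the opposite strand. That gene gave 87, 86 and 101 counts in WT samples, against 21, 24 and 24 in Tnfaip2-/- samples. Without strand information, reads over the shared bases cannot be assigned to either gene and may have been left uncounted.

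Tfcp2l1, another LIF target that sustains ESC self-renewal, went the other way, with 539, 538 and 554 counts in WT samples, against 794, 720 and 768 in Tnfaip2-/- samples. The groups did not overlap (log2 fold change 0.52, adjusted p = 1.89e-12, edgeR). Bcl3 (log2 fold change 0.35, adjusted p = 0.000295, edgeR) and Kdm3a, a histone demethylase gene (0.33, adjusted p = 5.74e-15, edgeR), were also higher. Smaller decreases were called for Junb (-0.26), the survival gene Mcl1 (-0.18) and Pim3 (-0.09), whose call was lost without Tnfaip2-/- replicate 1 (-0.07) and with upper-quartile factors or library totals. Junb shares 7.52% of its exon bases with Prdx2 on the opposite strand, whose own counts were 10820, 10517 and 11167 against 6963, 6945 and 6832. Fos had 96, 105 and 113 counts against 104, 78 and 98 counts, overlapped between groups and was not called (-0.13). Pramel7 had 0 counts in each WT sample and 8, 3 and 4 counts in the Tnfaip2-/- samples, below the filter.

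**Figure D3:**
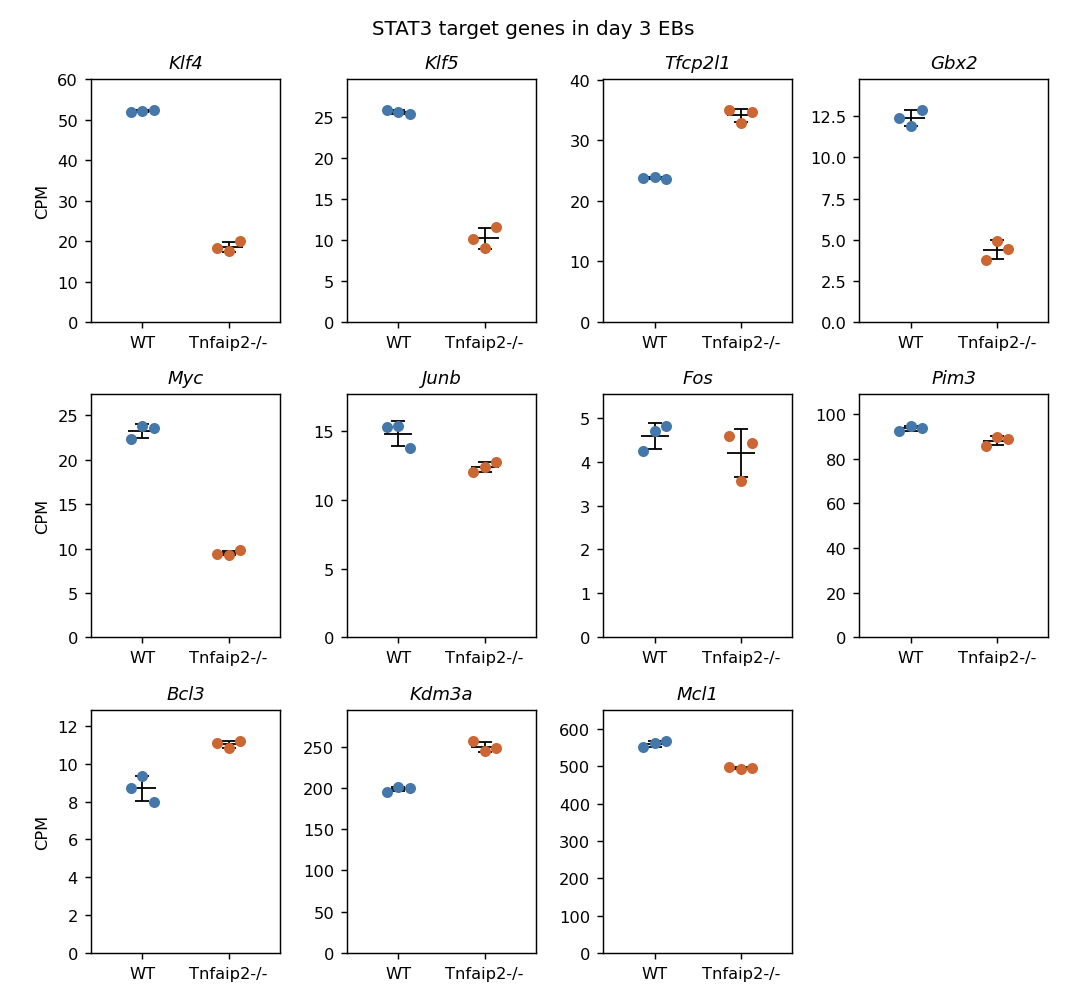
CPM (y axis, from 0) of the 11 tested STAT3 target genes in each of the 3 WT (blue) and 3 Tnfaip2-/- (orange) samples, with the mean and SD in black. Klf4, Klf5, Gbx2 and Myc are at less than 0.41 of the WT mean in Tnfaip2-/- EBs, while Tfcp2l1, Bcl3 and Kdm3a are higher.

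**Figure D4:**
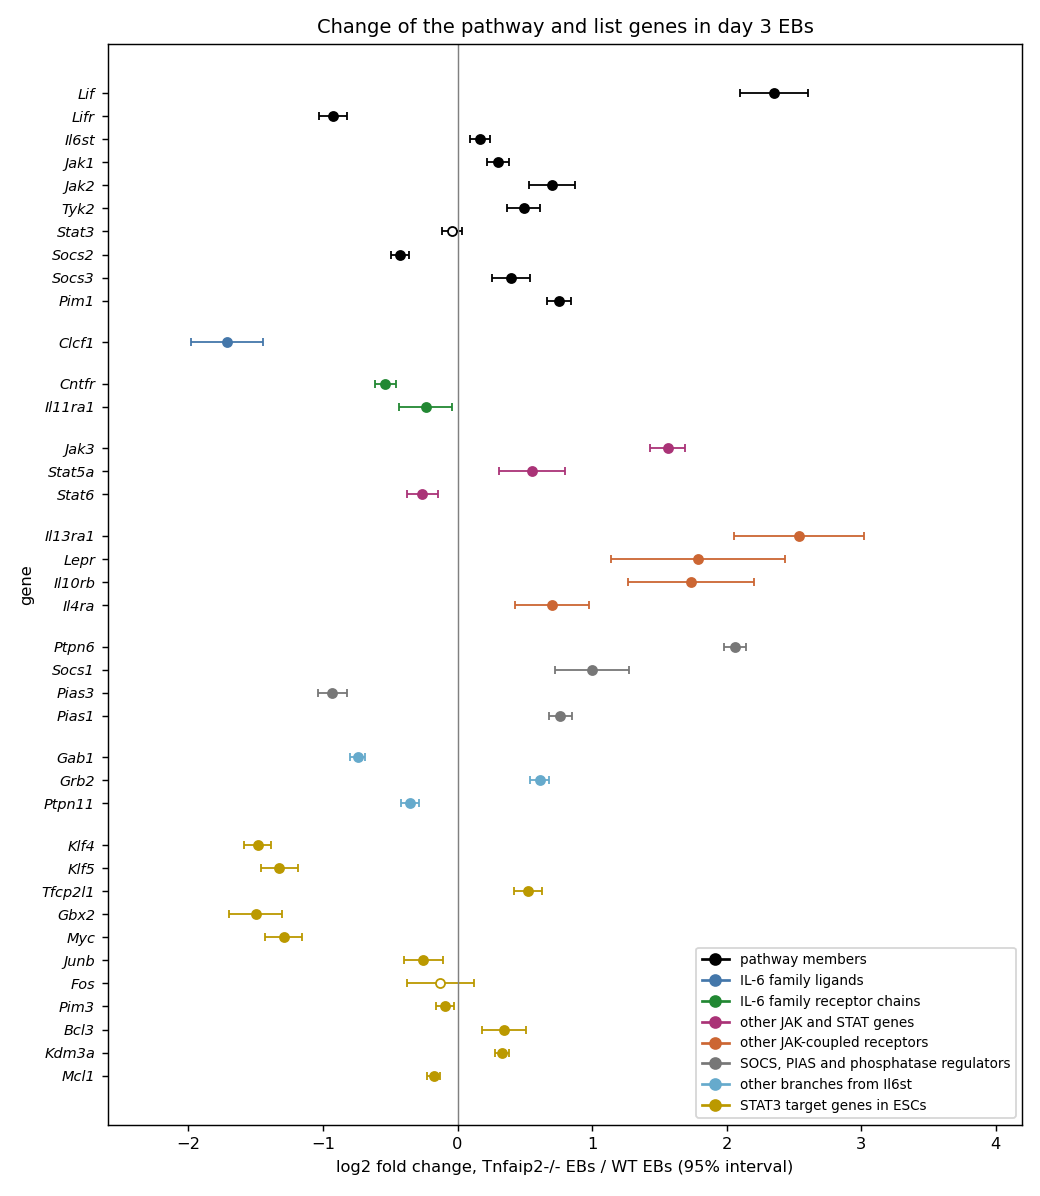
Log2 fold change in Tnfaip2-/- over WT EBs (x axis) with 95% intervals for the 10 pathway genes and the genes named from each list (y axis, coloured by list). Filled points were called and open points, Stat3 and Fos, were not, and among the pathway genes Lif lies at 2.35 and Lifr at -0.93.

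Over the 7 lists together, 46 of 62 tested genes were called (74.2%, against 67.7% of all tested genes), 24 higher and 22 lower.

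The genes most like Lif over the 6 samples, by the root mean square difference of log2 CPM (with a prior count of 2) centred on the WT mean, were Slco4c1 (0.139), Shtn1 (0.144) and Rhox7a (0.156), with log2 fold changes of 2.37, 2.36 and 3.09. Rhox7a had a mean of 0.103 CPM in the WT EBs, a level at which the prior count shrinks its change towards that of Lif, and 55.0% of its 51-base windows also occur in its copies, such as Rhox7b, so its place here is uncertain. Those most like Lifr were Limd2 (0.0219), Kdm2b (0.0237) and Tuba4a (0.0264), with log2 fold changes of -0.95, -0.95 and -0.92. Exons of Stk16 on the opposite strand overlap 37.3% of the exon bases of Tuba4a, and those of Rnf34 overlap 5.77% of Kdm2b.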

How the data were processed

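The 6 samples, 3 per genotype, hold RNA of EBs after 3 days on gelatin. The authors used a library kit without strand information, mapped the reads with TopHat2 2.1.0 to GRCm38, counted uniquely mapped reads per gene with featureCounts 1.5.0 (versions from the submitters' processing notes), and deposited the raw counts. Which strand option was set for counting is not stated in the sources. Reads over exon bases shared with another gene may have been left uncounted. For genes such as Tyk2, Jak3, Il10rb and Pim1, this would lower the levels per length, and a low count of the other gene does not exclude it. At this depth a gene at 3 counts, the floor used here, has between 0.128 and 0.137 CPM.

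The analysis used R 4.3.3 and edgeR 4.0.16: TMM factors (0.987 to 1.012), the default expression filter (minimum count 10, minimum total 15), and the robust quasi-likelihood F test over all tested genes, with p-values adjusted by Benjamini-Hochberg and called below 0.05. Standard errors are the log2 fold change over the square root of F. CPM are counts per 1000000 on the scaled library sizes, and levels per length divide by the union of exons in GENCODE. The steps were tested on simulated data in which few genes were changed. In the real data 67.7% of tested genes were called, a setting that the simulation did not cover. Promoter motifs were searched with Python 3.11.15.

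Members and lists were chosen with earlier results of these data known. The text names the 10 members, up to 4 called genes per pathway list with the largest absolute log2 fold change, every tested STAT3 target gene, Tnfaip2, and the 3 genes most like Lif and Lifr; other genes belong to marker lists or, as with Ctf1, Il6, Il27, Osmr, Pramel7, Osm, Il2rg and the genes beside Lif, were picked after their values were seen. Of the genes this rule picks, 2 are not reported here. The alternatives were other scalings and filters, DESeq2 1.42.0, the legacy fit, a test against a fold change of 1.5, a replicate block, and leaving out each sample.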

Additional observations from a re-analysis of the deposited data

How the results depend on the processing

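All 9 called members stayed called under every alternative except the test against a fold change of 1.5, and Stat3 was called under none. With that test, 3 members remained (2 higher, 1 lower), 16 of the pathway list genes in place of 46, and 2798 of all tested genes in place of 12084, since it asks for a larger change. Apart from it, the log2 fold change ranged from 2.17 to 2.61 for Lif, from -0.96 to -0.90 for Lifr and from -0.06 to -0.01 for Stat3. Across the 44 named genes, 629 of 658 alternative values gave the same direction and the same call, 29 lost the call and 0 changed direction. DESeq2 called 34 of the pathway list genes and 10268 of all genes, and leaving out a sample gave 39 to 43 and 11537 to 11744. Library totals without TMM factors raised the median log2 fold change of all tested genes by 0.03. Same-numbered samples did not deviate together (correlations from -0.165 to -0.135), and the other pairs of samples had correlations from 0.0232 to 0.148. Deviations from a mean of 3 samples are not independent, so these values do not settle whether the numbers pair the samples. With the replicate block, 11841 genes, 9 members and 45 pathway list genes were called, and the differences of the log2 ratios stayed at -1.09 for Lifr to Il6st and 0.44 for Socs3 to Stat3, where sign changes within pairs cannot give a p below 0.25. Depth limits genes with few counts, such as Osm, Il6 and Tnfaip2. With 1 clone, genotype and clone cannot be told apart.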
